A study of Arabidopsis thaliana with 15 samples.

Results

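The change that the ref4-3 allele makes in plants without the kinase CDK8 was measured as the difference between 3 libraries of the double mutant ref4-3 cdk8-1 and 3 libraries of cdk8-1. These 6 of the 15 libraries of the series were chosen by their genotype labels, and all were made from whole rosettes of Arabidopsis thaliana, accession Columbia-0, at an age of 20 days. By their labels both groups carry cdk8-1 and differ by ref4-3. A change with ref4-3 below is a difference between these lines, and other differences between the lines were not tested. Double mutants have ref4-3 and cdk8-1 together, and the controls have cdk8-1 with a wild-type MED5B gene. For comparison, the same allele change in plants that have CDK8 was taken from 6 other libraries, 3 of ref4-3 and 3 of the wild type (WT). Each library pooled 5 rosettes grown at 23 C in 16 h of light and 8 h of dark and harvested 6.5 h after subjective dawn, so a rosette holds leaves of several ages and many cell types. The labels call the samples biological triplicates, and the loss of CDK8 is represented here by the cdk8-1 allele alone.

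Mediator is the large complex that passes signals from transcription factors to RNA polymerase II. MED5B, the product of the REF4 gene, belongs to its tail, and CDK8 is the kinase of a module that can detach from the core together with cyclin C, MED12 and MED13. The ref4-3 allele is a semidominant missense mutation of MED5B that is known for dwarf plants with low levels of phenylpropanoids, the family of phenylalanine-derived compounds that includes lignin, sinapate esters and flavonoids. CDK8 is known to be needed for part of that dwarfism. What ref4-3 still changes in the absence of the kinase is the question of the comparison.

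The 6 libraries held 11325163 to 15080524 reads in genes, so that 1 count equalled 0.0663 to 0.0883 CPM, the unit in which a count is divided by the size of its library. Levels are CPM after scaling between libraries, in the order of replicates 1, 2 and 3. A change is a log2 fold change ± SE between groups of n = 3. A gene is called at a Benjamini-Hochberg adjusted p under 0.05 in edgeR's quasi-likelihood test over 18935 genes. Such a p-value speaks of the spread between pooled samples only. That spread was estimated over all 15 libraries, 3 of which are of the genotype ref4-1. A fit of the 6 libraries compared alone called 7219 genes, against 6185 in the main fit. Replicate 1 of cdk8-1 stood apart in 1 technical measure, reads aligned to several places. They equalled 5.88% of its reads in genes against 2.37% to 2.97% in the other 5 libraries. Without it 5089 genes were called in place of 6185, and leaving out any 1 of the 6 libraries gave 5031 to 5481.

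MED5B transcript does not reveal a missense allele. Its level was 23.7, 22.9 and 22.7 CPM in ref4-3 cdk8-1 and 26.5, 26.7 and 22.4 in cdk8-1. The groups overlapped, and the change of -0.13 ± 0.093 did not pass the test (adjusted p = 0.321). CDK8 transcript stood at 6.58, 5.27 and 4.38 CPM in ref4-3 cdk8-1 and 4.39, 4.43 and 4.7 in cdk8-1, against 18 to 20.5 in WT. Both groups were thus low in CDK8 transcript and overlapped each other (0.26 ± 0.15, adjusted p = 0.194). None of the 19 Mediator subunits measured was called at a background of 32.7% of all genes, with a median change of 0.02. At an unadjusted p under 0.05 edgeR's test passed 2 of the 19, against 7953 of all genes, and DESeq2 and limma voom called 0. Leaving out replicate 3 of ref4-3 cdk8-1 gave 2 subunits called higher, and leaving out replicate 3 of cdk8-1 gave 1.

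DJC66, a small J-domain protein of the DnaJ co-chaperone family, was named whatever its result, as a gene whose change with the allele was known from earlier results of these data. Its level was 217, 208 and 237 CPM in ref4-3 cdk8-1 and 12.9, 12.6 and 12 in cdk8-1. The 3 double mutant libraries stood far above the 3 controls, a rise of 4.14 ± 0.11 (adjusted p = 3.48e-15). With CDK8 present the gene rose by 4.56, and the difference of -0.42 between the 2 rises was not called (adjusted p = 0.139).

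Markers of rosette leaf tissue were high in all 6 libraries, the 28 photosynthesis genes summing to 78600 to 81200 CPM in ref4-3 cdk8-1 and 109000 to 115000 in cdk8-1. The 6 root markers summed to at most 0.5 CPM, and EXPA7, COBL9, RHD6 and CASP2 had no count in any of the 6 libraries. The 8 seed storage genes summed to at most 1.79 CPM and the 7 flower organ genes to 1.21 to 3.42. Of the xylem markers 0 of 11 were called by edgeR, DESeq2 or limma voom and 0 had an unadjusted p under 0.05 in edgeR's test. Of the phloem markers 2 were called higher and 2 lower of 7, and of the guard cell markers 2 higher and 1 lower of 11. The part of cell type makeup in the results that follow was not tested, and in pooled rosettes fewer cells of a type and less RNA per cell cannot be told apart.

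Without CDK8, 6185 of 18935 genes (32.7%) were still called with ref4-3, 3092 higher (16.3%) and 3093 lower (16.3%). At least a 2-fold change was found for 1016 of them (5.37%), 581 higher and 435 lower. The 3 libraries of a group did not overlap those of the other for 48.5% of all genes, so such a separation alone is common. With CDK8 present, 7544 genes were called (39.8%), 20.2% of all genes higher and 19.7% lower, 1490 changed at least 2-fold (7.87%) and 49.9% had groups that did not overlap. The direction was mostly shared. Of the genes called without CDK8, 4122 were called in the same direction with it, which is 66.6% of the calls without CDK8 and 54.6% of the calls with it. Opposite directions were called for 64 genes.

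Among the 1016 genes with at least a 2-fold change without CDK8, 849 (83.6%) were also called in the same direction with CDK8, and 96.4% had the same sign. Among the 1490 genes with at least a 2-fold change in plants that have CDK8, 961 (64.5%) were still called without it. Their median change was 1.488 in size with CDK8 and 1.047 without it. Measured in the direction of the change with CDK8, 79.1% changed less without CDK8, a share that includes genes of opposite sign. These genes were picked by their change with CDK8, so the drop in size is a description and not a test. The 1016 genes picked by their change without CDK8 went the other way. Their median change was 1.486 in size without CDK8 and 1.348 with it, and 41.5% changed less without CDK8 by the same measure of direction. Across the 18935 genes, which are not independent replicates, the 2 sets of log2 fold changes had Pearson's r of 0.757 and Spearman's rho of 0.668. The test of the difference between the changes, the interaction of ref4-3 with cdk8-1, called 1002 genes (5.29%), 619 higher (3.27%) and 383 lower (2.02%), and 1.08% of all genes were called with a difference of at least 2-fold. That count was 579 without replicate 2 of cdk8-1, 637 without replicate 2 of WT and 648 without replicate 3 of ref4-3.

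**Figure D1:**
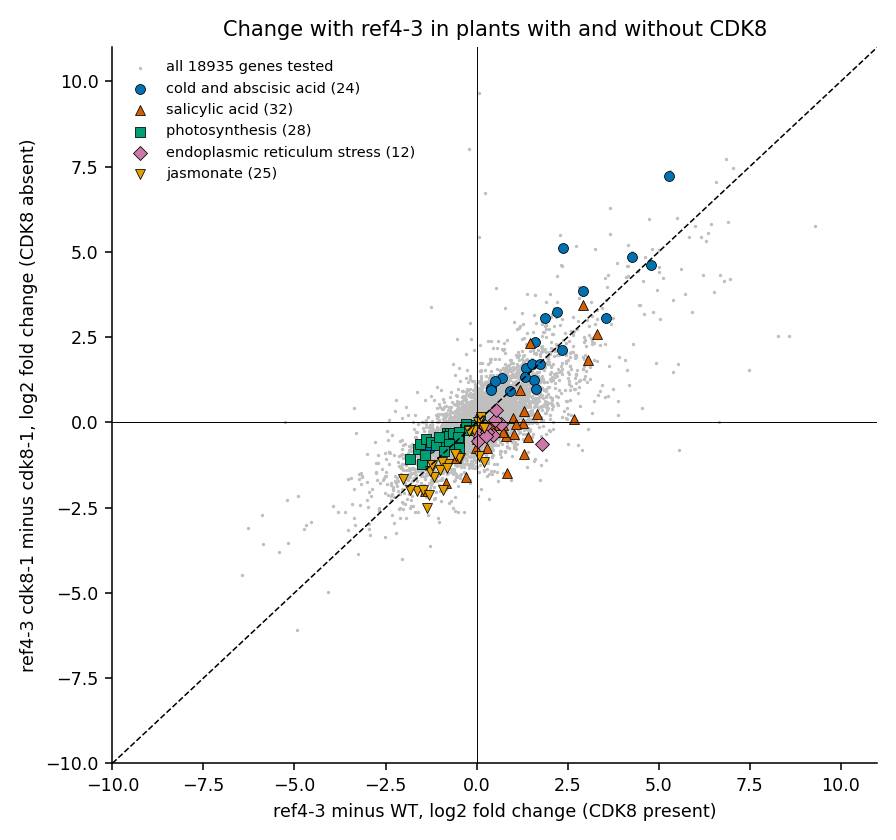
Each grey point is 1 of the 18935 genes, with the log2 fold change of ref4-3 against WT on the x axis and of ref4-3 cdk8-1 against cdk8-1 on the y axis; the dashed line marks equal change and 5 gene lists are coloured. Cold and abscisic acid genes lie in the upper right and photosynthesis genes in the lower left, while most salicylic acid and endoplasmic reticulum stress genes lie right of 0 but near or below 0 on the y axis.

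The scatter of the 2 changes shows where lists lie. Where called, genes of cold and abscisic acid lay above 0 in both settings and those of jasmonate and photosynthesis below 0 in both, and of 32 salicylic acid genes 21 were called higher with CDK8 and 4 without it. The list counts below are set beside the background of 32.7% called and the median change of 0.0192 over all genes.

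**Figure D2:**
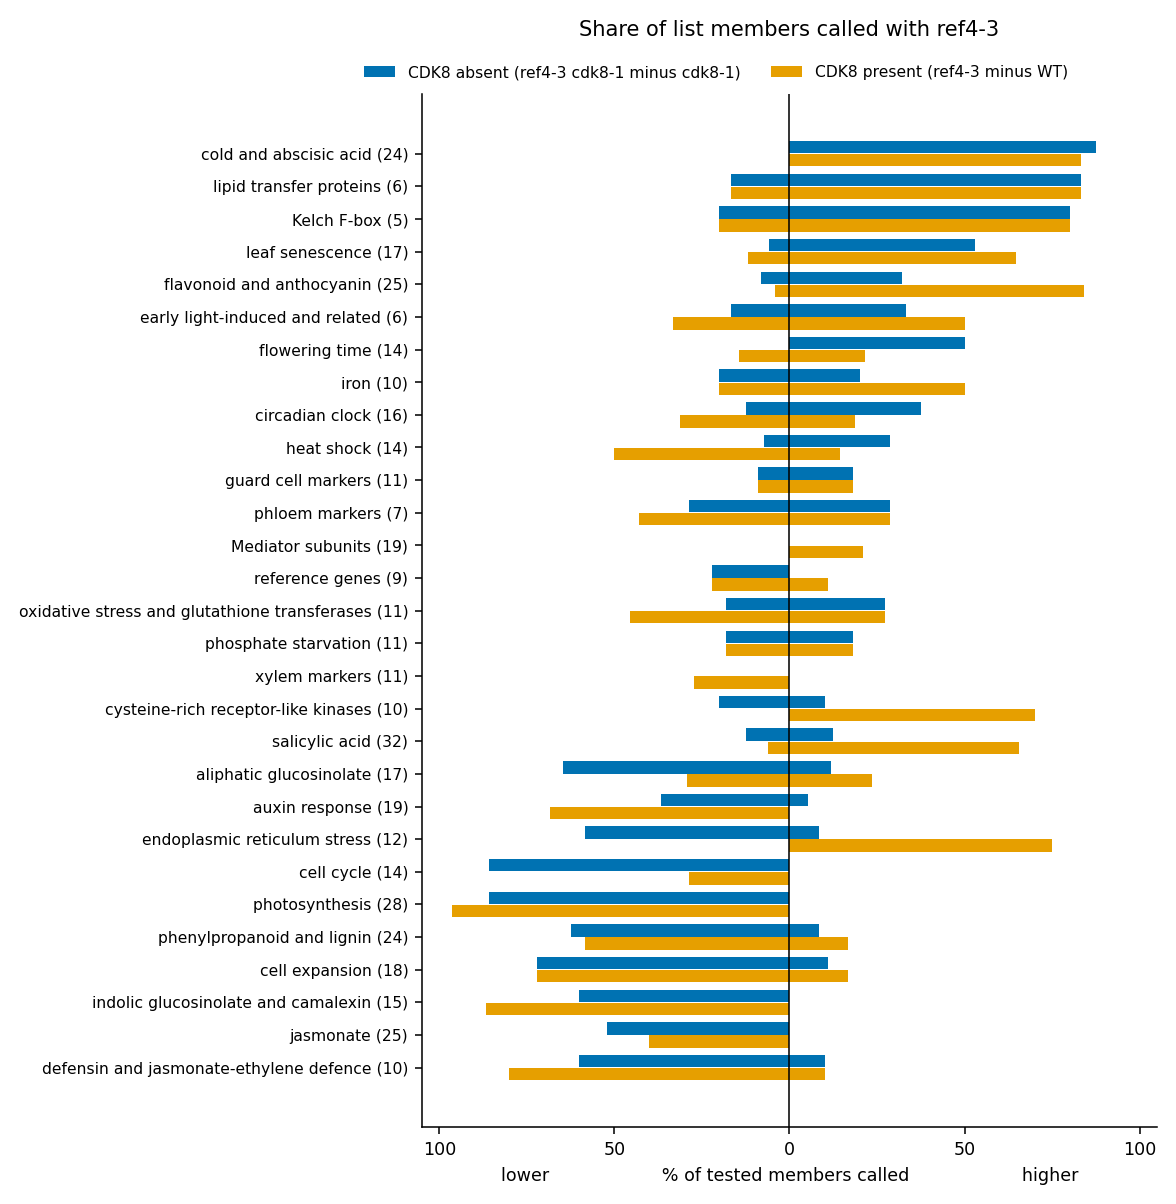
Bars give the share of the tested members of each list that was called higher (right) or lower (left) with ref4-3, in percent; blue is ref4-3 cdk8-1 against cdk8-1, orange is ref4-3 against WT, and the number tested is in brackets. Cold and abscisic acid, Kelch F-box and lipid transfer protein lists have like bars in both colours, whereas salicylic acid, flavonoid, endoplasmic reticulum stress and cell cycle lists have unlike ones.

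The shares called by list fall into lists with like bars and lists with unlike bars. Like bars show near counts of calls and not sizes of change, and the test of each member's difference is given where it was called.

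Kelch F-box proteins mark phenylalanine ammonia-lyase or chalcone synthase, the entry enzymes of phenylpropanoid and flavonoid synthesis, for degradation. All 5 were called without CDK8, 4 higher and 1 lower, with a list median of 0.83. KFB39 stood at 163, 141 and 152 CPM in ref4-3 cdk8-1 and 8.43, 6.28 and 9.31 in cdk8-1. The double mutant libraries did not come near the controls, a rise of 4.24 ± 0.12 (adjusted p = 1.66e-14). It overlaps AT2G44140 on the opposite strand by 1445 bases, and AT2G44140 itself was not called (-0.10 ± 0.0746, adjusted p = 0.316). KFB50 was 128, 127 and 131 CPM in the double mutant and 72.5, 64.5 and 64.2 in cdk8-1. These groups did not overlap either, and the rise was 0.94 ± 0.065 (adjusted p = 2.14e-10). KFB01 rose by 0.83 ± 0.14 and KFB20 by 0.82 ± 0.19, while KFB-CHS, which targets chalcone synthase, fell by 1.47 on the log2 scale. The rises of KFB39, KFB50 and KFB01 were smaller than those with CDK8 present, by interactions of -0.88, -0.46 and -0.81 with adjusted p of 0.00815, 0.00413 and 0.012.

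Of 24 phenylpropanoid and lignin genes tested, 15 were called lower and 2 higher, with a median of -0.47. With CDK8 present 14 were called lower and 4 higher. The falls ran along the pathway from its entry to monolignols. PAL2, which takes ammonia from phenylalanine, was at 28.8, 27.8 and 34.2 CPM in ref4-3 cdk8-1 and 80.4, 77.8 and 83.2 in cdk8-1. All double mutant libraries lay below all controls, a log2 change of -1.41 ± 0.11 (adjusted p = 1.72e-08). 4CL1, which activates the acid as its coenzyme A ester, fell by 1.11 and HCT, which makes the shikimate ester, by 0.84 on the log2 scale. COMT1, a methyltransferase of syringyl lignin, fell by 0.92 and CAD4, the last reduction step to monolignols, by 1.26. Of the 7 members not called, CAD5, PAL4, LAC4 and LAC17 had changes of -0.05, -0.45, -0.22 and -0.20, and the others had changes of 0.04 to 1.95. The member at 0.04 rose by 0.56 with CDK8, and its interaction of -0.53 was called (adjusted p = 0.0137).

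MYB4, a repressor of cinnamate 4-hydroxylase and sinapate ester genes, and UGT84A2, which makes sinapoylglucose, were the members that rose. MYB4 stood at 57.5, 63.5 and 65.3 CPM in ref4-3 cdk8-1 and 16.5, 15.8 and 17.7 in cdk8-1. The 3 double mutant libraries were all above the controls, a rise of 1.89 ± 0.093 (adjusted p = 9.5e-13). UGT84A2 rose by 1.57 ± 0.085. Both rises were smaller than with CDK8 present, where they were 2.70 and 2.59, and the interactions of -0.81 and -1.02 had adjusted p of 0.000678 and 1.81e-05. SNG1, which makes sinapoylmalate from sinapoylglucose, fell by 0.39 without CDK8 and by 1.24 with it, a difference of 0.84 (adjusted p = 1.48e-05).

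Genes of cold acclimation and of the drought hormone abscisic acid moved mostly in 1 direction. In this pathway CBF factors and ABF factors switch on protective dehydrins and other hydrophilic proteins, and type 2C phosphatases such as ABI1 and HAI1 hold the hormone signal back. Of 24 genes tested 21 were called higher and 0 lower, with a median of 1.65. With CDK8 present 20 were called higher and 0 lower, with a median of 1.59. Their summed level was 10600 to 11100 CPM in ref4-3 cdk8-1, 2910 to 2980 in cdk8-1, 5150 to 5650 in ref4-3 and 1650 to 2030 in WT.

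Among the effector genes, RD29A, which encodes a hydrophilic protein, stood at 2000, 1980 and 1950 CPM in ref4-3 cdk8-1 and 405, 388 and 360 in cdk8-1. Every double mutant library was several times above every control, a rise of 2.36 ± 0.086 (adjusted p = 5.42e-15). The rise was larger than the 1.60 with CDK8 present (interaction 0.77, adjusted p = 0.000385). Its neighbour RD29B, a gene known for its response to abscisic acid, was at 74.4, 82.7 and 83.3 CPM against 0.843, 0.369 and 0.355. The controls were close to no transcript and the double mutants were not, a rise of 7.22 ± 0.33, while the interaction of 1.92 was not called (adjusted p = 0.435). KIN1, a small cold-induced protein, was at 584, 645 and 729 CPM against 18.4, 22.2 and 27.8, a rise of 4.84 ± 0.26. KIN2 (1.24 ± 0.12) is its near-identical neighbour, so reads of both may not be told apart and single values are uncertain. RAB18, an abscisic acid-responsive dehydrin, was at 202, 253 and 259 CPM against 7.59, 6.18 and 6.83. Its groups lay far apart, and the rise of 5.11 ± 0.32 exceeded the 2.37 with CDK8 present (interaction 2.74, adjusted p = 0.0112).

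**Figure D3:**
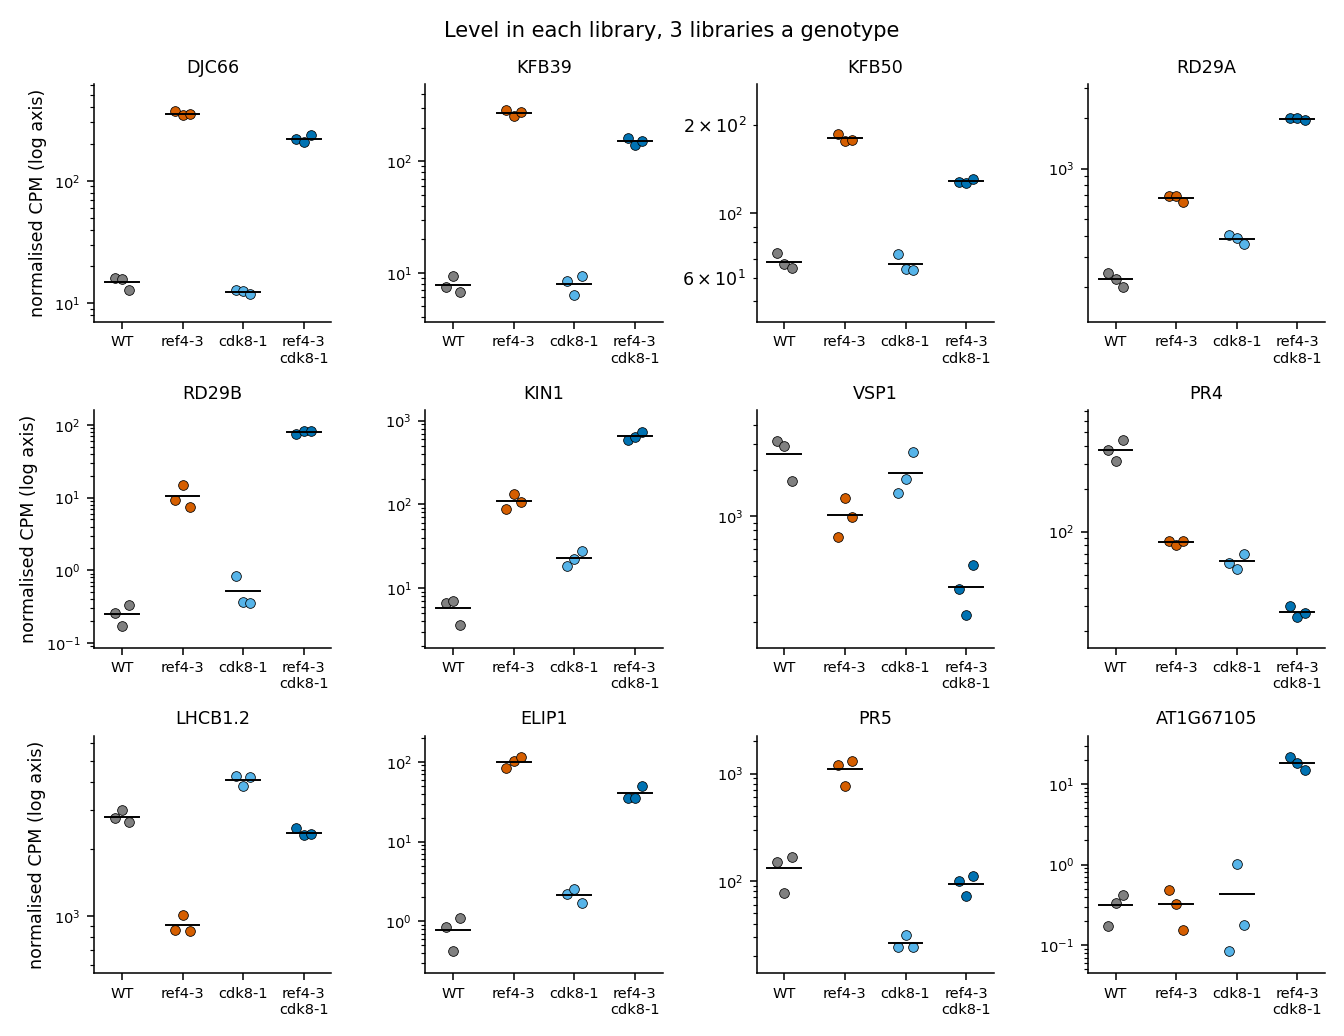
Points are single libraries, 3 for each of WT, ref4-3, cdk8-1 and ref4-3 cdk8-1, with normalised CPM on a log axis whose range differs between the 12 genes; bars are means. RD29A, RD29B and KIN1 are highest in the double mutant, PR5 is high in ref4-3 and much lower in the double mutant, and AT1G67105 is above 15 CPM in the double mutant and near 1 or less elsewhere.

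The plot of single libraries shows the order of the 4 genotypes for each gene. For DJC66, KFB39, KFB50 and ELIP1 the double mutant lies between cdk8-1 and ref4-3, and for VSP1 and PR4 it lies below all the other genotypes.

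COR15A and COR15B, chloroplast proteins that protect membranes, rose by 3.07 ± 0.23 and 2.13 ± 0.1. The dehydrins COR47, ERD10 and ERD14 rose by 1.01 ± 0.059, 1.3 ± 0.068 and 0.94 ± 0.075, each more than with CDK8 present by interactions of 0.60, 0.60 and 0.53. Their adjusted p for the interaction were 0.000144, 0.000532 and 0.00413. Of the regulators, CBF3 stood at 23, 21.5 and 21.5 CPM against 9.62, 7.57 and 11 in cdk8-1. It did not overlap and rose by 1.22 ± 0.16, while CBF2 was not called (-0.76) and CBF1 was under the filter on low counts. The phosphatase genes ABI1, ABI2, HAI1 and HAI2 rose by 0.92 ± 0.082, 1.60 ± 0.097, 3.85 ± 0.33 and 4.62 ± 0.23. NCED3, which makes the committed step of abscisic acid synthesis, rose by 0.97 ± 0.16, and the factor gene ABF3 rose by 1.34 ± 0.12, whereas ABF4 did not pass (0.15, adjusted p = 0.182). GOLS3, a galactinol synthase, was the other member not called (-0.38).

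The 250 bases upstream of 3 of these genes are shown because RD29A and RD29B are neighbours that hold different known elements and KIN1 holds neither. They were read from the TAIR10.1 assembly on the gene's own strand, and capitals mark the abscisic acid-responsive element (ABRE, ACGTGNC) and the dehydration-responsive element (DRE, CCGAC), searched on both strands. RD29A lies at chr5:21240467-21240716, RD29B at chr5:21236771-21237020 and KIN1 at chr5:5209467-5209716, all on the + strand.
RD29A: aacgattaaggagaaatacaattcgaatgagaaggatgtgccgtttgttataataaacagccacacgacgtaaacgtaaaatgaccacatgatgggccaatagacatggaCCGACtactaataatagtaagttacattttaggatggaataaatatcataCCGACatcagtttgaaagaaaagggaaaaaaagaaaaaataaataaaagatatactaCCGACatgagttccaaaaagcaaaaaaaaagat
RD29B: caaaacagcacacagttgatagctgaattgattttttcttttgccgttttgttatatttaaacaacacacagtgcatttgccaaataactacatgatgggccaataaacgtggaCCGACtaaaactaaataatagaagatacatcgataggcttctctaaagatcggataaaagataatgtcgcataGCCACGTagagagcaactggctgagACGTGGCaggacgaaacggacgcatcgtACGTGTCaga
KIN1: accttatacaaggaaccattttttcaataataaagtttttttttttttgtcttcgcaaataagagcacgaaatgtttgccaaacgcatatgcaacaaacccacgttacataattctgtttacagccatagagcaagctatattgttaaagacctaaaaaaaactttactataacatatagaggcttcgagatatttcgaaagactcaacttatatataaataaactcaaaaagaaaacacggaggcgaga

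RD29A held 3 DRE matches and 0 ABRE matches, RD29B held 3 ABRE and 1 DRE, and KIN1 held 0 of either and 1 evening element (AAATATCT). ABRE matches stood in 22.1% of 560 protein-coding genes that rose at least 2-fold without CDK8. They stood in 9.68% of all 18389 protein-coding genes tested, in 7.11% of 422 that fell at least 2-fold and in 8.83% of those not called. DRE matches stood in 16.6% of the risers and 13.1% of all genes, and evening elements in 9.82% and 5.1%. Of the 24 cold and abscisic acid genes 5 held an ABRE and 6 held a DRE. Of the 28 photosynthesis genes, of which 24 were called lower, 9 (32.1%) held an ABRE and 2 a DRE. These counts describe letters in a fixed window and had no test.

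Late embryogenesis abundant proteins, which protect cells as they dry, were among the 12 greatest rises, which were taken from called genes that averaged 5 CPM or more over the 6 libraries and whose groups did not overlap. LEA7 was at 10.4, 15.9 and 18 CPM against 0.169, 0 and 0.621, LEA4-5 at 12.6, 13.7 and 12 against 0.337, 0.277 and 0.177, and AT3G02480 at 13.2, 22.5 and 24.4 against 0.253, 0.0923 and 1.24. All 3 were low in the controls and higher in every double mutant library, with rises of 5.75 ± 0.49, 5.54 ± 0.41 and 5.22 ± 0.49. LEA7 had no count in WT, and its level in ref4-3 was at least 71.2-fold higher than WT, against a floor of 3 counts over the group. DAA1, annotated as a nucleoside triphosphate hydrolase, had the greatest of these rises outside MRD1, from 0.506, 0.277 and 0.621 CPM in cdk8-1 to 81.5, 86.9 and 85.5 in the double mutant (7.46 ± 0.31).

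Lipid transfer proteins carry lipids to the outer cell wall, and 5 of 6 were called higher and 1 lower, with a median of 1.09 against 1.27 with CDK8. LTP3 was at 165, 191 and 198 CPM in ref4-3 cdk8-1 and 5.23, 2.03 and 2.84 in cdk8-1. LTP4, its near-identical neighbour, was at 115, 119 and 124 against 4.72, 1.85 and 2.31. Both were low in all controls and high in all double mutants, with rises of 5.76 ± 0.26 and 5.31 ± 0.31, and single values of this pair are uncertain. LTP1 rose by 0.78 ± 0.098 and LTP2 by 1.39 ± 0.14, while LTP5 fell by 0.43 on the log2 scale. LTP6 rose by 0.40 ± 0.1, against 0.97 with CDK8. The interaction was called for LTP5 (0.63, adjusted p = 0.0206) and LTP6 (-0.57, adjusted p = 0.0217), in opposite directions. AT2G37870 and AT1G62510, which belong to the same superfamily, rose by 5.45 ± 0.4 and 2.90 ± 0.19. The rise of AT1G62510 was not seen with CDK8 present (-0.17), and the interaction of 3.07 was called (adjusted p = 0.000123). AT3G59930, a defensin-like protein, rose by 5.54 ± 0.2.

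Jasmonate is the wound and insect defence hormone. It is made from chloroplast lipids by LOX2, AOS and AOC enzymes, its signal removes JAZ repressors, and VSP1 is a common output gene. Of 25 genes tested 0 were called higher and 13 lower, with a median of -1.21, and with CDK8 present 10 were called lower with a median of -0.81. No member was called for the interaction. The count of 13 fell to 7 without replicate 1 of ref4-3 cdk8-1, to 8 without its replicate 2 and to 8 without replicate 1 of cdk8-1.

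Of the synthesis genes, AOS was at 288, 288 and 355 CPM in ref4-3 cdk8-1 and 872, 740 and 906 in cdk8-1. No double mutant library reached a control, a log2 change of -1.44 ± 0.32 (adjusted p = 0.00547). LOX2 fell by 1.21, AOC1 by 2.01 and AOC2 by 1.15 on the log2 scale, while LOX3 and LOX4, at -1.03 and -1.60, did not pass. LOX4 was called by DESeq2 (-1.61) and limma voom (-1.59), and both genes were called with the libraries of the contrast alone. Among the repressor genes JAZ9 was at 56, 76.3 and 94.1 CPM against 324, 239 and 336. The groups lay apart, a log2 change of -1.99 ± 0.37 (adjusted p = 0.00202). JAZ6 fell by 1.26 and JAZ10 by 2.14 on the log2 scale, and JAZ10 lost its call without replicate 1 of ref4-3 cdk8-1, at -2.07. Of the outputs, VSP1 was at 330, 220 and 472 CPM against 1410, 1740 and 2640. All 3 double mutants were below the lowest control, a log2 change of -2.51 ± 0.45 (adjusted p = 0.00153). VSP2 was at -1.17 and not called in the main fit. It was called by DESeq2 (-1.18) and limma voom (-1.19), and at -1.55 without replicate 3 of ref4-3 cdk8-1. The receptor gene COI1, the conjugating enzyme gene JAR1 and the factor gene MYC2 were not called, at 0.17, 0.00 and -0.22.

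TAT3, a jasmonate-responsive tyrosine aminotransferase, was at 17.9, 17.1 and 30.7 CPM against 109, 147 and 153 in cdk8-1. It fell by 2.64 on the log2 scale without CDK8 and was not called with it (-0.52), yet the interaction of -2.12 was not called either (adjusted p = 0.0695). MDHAR, a monodehydroascorbate reductase, had the greatest fall by the same rule, from 13.6, 23.5 and 17 CPM in cdk8-1 to 1.21, 0.445 and 1.75 in the double mutant (-4.01 ± 0.8). The thionin gene AT1G66100 fell by 3.32, the lectin gene AT3G15356 by 3.12 and the methyltransferase gene AT1G15125 by 3.16. MSRB9 and MSRB6, which repair oxidised methionine, fell by 3.24 and 3.00 on the log2 scale. PGL5, a phosphogluconolactonase, fell by 2.79, and AT3G16670 (a pollen allergen and extensin family protein), AT5G26220 (ChaC-like family) and AT5G26260 (TRAF-like family) fell by 3.37, 2.95 and 2.79.

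Genes that answer jasmonate together with ethylene were called lower in 6 of 10 cases and higher in 1, with a median of -1.8. With CDK8 present the counts were 8 lower and 1 higher. PR4, a chitin-binding protein, was at 30.2, 25.3 and 26.9 CPM in ref4-3 cdk8-1 and 60.6, 54.6 and 70.1 in cdk8-1. The double mutants were all lower, a log2 change of -1.17 ± 0.14, which was smaller than the fall of 2.16 on the log2 scale with CDK8 (interaction 0.99, adjusted p = 0.00866). The regulator genes ORA59 and ERF2 fell by 1.79 and 1.71. PDF1.2A, an antifungal defensin, was at 1.72, 0.572 and 1.53 CPM against 12.2, 12.3 and 27.8, while WT held 1030 to 1490. It fell by 3.79 on the log2 scale, and its single value is uncertain because the other PDF1.2 genes and PDF1.3 are near-identical to it. PR3, a basic chitinase, was the member that rose (0.78 ± 0.23), and it lost its call without replicate 2 of ref4-3 cdk8-1 and without each replicate of cdk8-1, at 0.56 to 0.79.

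Glucosinolates are the sulphur-rich defence compounds of this plant family. Of 15 genes of indolic glucosinolates and the phytoalexin camalexin, 9 were called lower and 0 higher, with a median of -0.66, against 13 lower and 0 higher with CDK8. CYP83B1, an early step shared by indolic glucosinolates, was at 197, 209 and 234 CPM against 436, 369 and 422. The groups did not overlap, a log2 change of -0.94 ± 0.15 (adjusted p = 0.000297), and UGT74B1 and SOT16 fell by 0.70 and 0.78. PAD3, the last step to camalexin, was not called (-0.45). IGMT1, a methyltransferase of indolic glucosinolates, was at -0.53 and not called, against a fall of 2.04 on the log2 scale with CDK8 (interaction 1.51, adjusted p = 0.0206). Of 17 genes of methionine-derived aliphatic glucosinolates 11 were called lower and 2 higher, with a median of -0.28, against 5 lower and 4 higher with CDK8. MAM3, which lengthens the side chain, was at 21.7, 19.4 and 23.6 CPM against 37.9, 39.1 and 34.1. It fell by 0.78 without CDK8 and was at -0.09 with it, and the interaction of -0.69 was called (adjusted p = 0.00489). The regulator genes MYB28 and MYB76 were the members that rose, by 0.30 ± 0.074 and 0.59 ± 0.17, and without replicate 1 of cdk8-1 MYB76 stood at 0.49 and was not called.

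Photosynthesis genes were called lower in 24 of 28 cases and higher in none, with a median of -0.47. With CDK8 present 27 were called lower with a median of -0.77, and for 10 of the 28 the interaction was called higher, that is, the fall was smaller without CDK8. LHCB1.2, a light-harvesting antenna protein of photosystem II, was at 2480, 2310 and 2330 CPM in ref4-3 cdk8-1 and 4260, 3850 and 4200 in cdk8-1. The double mutants were all lower, a log2 change of -0.79 ± 0.081, against a fall of 1.62 on the log2 scale with CDK8 (interaction 0.83, adjusted p = 0.000127). Its level in ref4-3 was 854 to 1010 CPM and in WT 2640 to 3000. The LHCB1 and LHCB2 genes have near-identical copies, so single values are uncertain. LHCB3, which has no such copy in the list, fell by 0.59 without CDK8 and by 1.26 with it (interaction 0.66, adjusted p = 0.000757). LHCA1, an antenna protein of photosystem I, fell by 0.66 and 1.11. The carbon-fixation genes RCA and RBCS1B fell by 0.84 and 0.74 without CDK8 and by 0.89 and 0.47 with it, and neither was called for the interaction (adjusted p = 0.863 and 0.198). Not called were PSBO1, PSBO2, PSBR and LHCB4.1, at -0.18, -0.07, -0.05 and -0.18. PSBO1 was called at -0.22 without replicate 3 of cdk8-1 and at -0.19 with other scaling factors.

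ELIP1, an early light-induced protein that binds pigments under stress, went the other way. It was at 34.8, 35.2 and 50.3 CPM in ref4-3 cdk8-1 and 2.19, 2.58 and 1.68 in cdk8-1, and at 82.9 to 114 in ref4-3. The double mutants were all above the controls but below every ref4-3 library. The rise was 4.21 ± 0.24 without CDK8 and 6.95 with it, the interaction of -2.74 being called (adjusted p = 0.00822). Its relative SEP2 rose by 0.56 ± 0.084, and OHP1 fell by 0.38 on the log2 scale.

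Cell wall loosening proteins, the expansins and the xyloglucan endotransglucosylases of the XTH family, were called lower in 13 of 18 cases and higher in 2, with a median of -0.63. With CDK8 present the counts were 13 and 3. XTH24 was at 38.1, 36.1 and 42.9 CPM against 116, 97.9 and 134. The groups lay well apart, a log2 change of -1.57 ± 0.13 (adjusted p = 4.5e-07), and XTH7 fell by 1.25. EXPA8 fell by 1.82 on the log2 scale, while EXPA10 and EXPA15 rose by 0.39 ± 0.069 and 0.72 ± 0.084. The interaction was called for 5 members, 4 higher and 1 lower, among them EXPA11 and EXPA10 with 0.92 and -0.50 and adjusted p of 0.00263 and 0.00349. XTH31, which is outside that list, rose by 1.19 ± 0.08 without CDK8 and by 3.04 with it (interaction -1.86, adjusted p = 1.15e-09). Its level was 198, 193 and 210 CPM in ref4-3 cdk8-1, 93.5, 93.2 and 76.9 in cdk8-1, 175 to 203 in ref4-3 and 21.5 to 26.1 in WT. The 2 genotypes with ref4-3 thus overlapped, and cdk8-1 stood above WT.

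Of 19 auxin response and transport genes 7 were called lower and 1 higher, with a median of -0.29, against 13 lower with CDK8. IAA17 and IAA19, repressors that auxin removes, fell by 0.56 and 1.35 on the log2 scale. The gene of the auxin efflux carrier PIN7 fell by 0.41 without CDK8 and by 0.94 with it (interaction 0.54, adjusted p = 0.0037). GH3.5, which conjugates auxin to amino acids, was the member that rose (0.64 ± 0.15).

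Salicylic acid is the hormone of defence against biotrophic pathogens. ICS1, EDS5 and PBS3 make it, CBP60g and SARD1 switch on ICS1, and PR1, PR2 and PR5 are outputs. Of 32 genes tested 4 were called higher and 4 lower, with a median of -0.10. With CDK8 present 21 were called higher and 2 lower, with a median of 0.78, and for 12 of the 32 the interaction was called lower. The summed level was 547 to 632 CPM in ref4-3 cdk8-1 and 477 to 625 in cdk8-1, which overlapped, against 2640 to 3980 in ref4-3 and 942 to 1410 in WT. The 4 lower calls became 2 without replicate 1 or replicate 2 of ref4-3 cdk8-1 or without replicate 2 of cdk8-1, and the median became -0.172 without replicate 3 of ref4-3 cdk8-1 and -0.221 without replicate 1 of cdk8-1.

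ICS1, the first step of salicylic acid synthesis, was at 11.6, 11.7 and 11.8 CPM in ref4-3 cdk8-1 and 13.7, 15.7 and 15.1 in cdk8-1, and at 38.2, 35.1 and 48 in ref4-3 and 20.8, 15.3 and 23.2 in WT. With CDK8 the allele gave a rise of 1.03, and without it the value was -0.34 and not called (adjusted p = 0.104), the interaction being -1.37 (adjusted p = 0.000645). EDS5, the transporter that exports the precursor from the chloroplast, was at 5.86, 5.46 and 4.6 CPM against 16.5, 15.9 and 16. All double mutants were lower, a log2 change of -1.60 ± 0.16 (adjusted p = 1.58e-07), and the interaction of -1.32 was called. SARD1 was at 7.22, 7.75 and 9.13 CPM against 9.95, 14.3 and 8.25, with 54.3 to 71 in ref4-3. The first groups overlapped (-0.43, adjusted p = 0.0829), with a call at -0.59 without replicate 3 of cdk8-1, and the interaction was -1.83 (adjusted p = 0.000185). The regulator genes and synthesis genes CBP60g, PBS3, PAD4, EDS1, NPR3, WRKY70, SARD4 and ALD1 were likewise not called without CDK8, were called higher with it and had a called interaction, of -0.97, -1.4, -1.22, -0.65, -0.58, -0.81, -0.87 and -2.22.

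Output genes behaved differently from each other. PR1 was at 31.2, 22.4 and 16.5 CPM in ref4-3 cdk8-1 and 6.41, 3.6 and 3.9 in cdk8-1, far under the 235 to 450 of ref4-3. The double mutants lay above the controls, and the rise of 2.32 ± 0.61 was called (adjusted p = 0.0137). WT held 63.7 to 135 CPM of PR1, so both groups without CDK8 stood below WT. PR5 was at 98.9, 72.2 and 112 CPM against 24, 31.2 and 24, again without overlap, and rose by 1.84 ± 0.35. For PR5 ref4-3 held 773 to 1310 CPM and WT 76.4 to 167, so the double mutant overlapped WT and cdk8-1 stood below WT. The interactions of PR1 and PR5, 0.84 and -1.21, were not called (adjusted p = 0.597 and 0.18). PR2 overlapped between the groups (-0.02, adjusted p = 0.974). The glucosyltransferase genes UGT74F1 and UGT74F2, which store salicylic acid as conjugates, rose by 2.59 ± 0.33 and 0.95 ± 0.095 and were the other members called higher. The transcription factor genes WRKY38, WRKY46 and WRKY54 fell by 1.48, 0.75 and 0.49 on the log2 scale. WRKY38 rose by 0.84 with CDK8, and its interaction of -2.33 was called (adjusted p = 0.00276). WRKY46 lost its call without any of replicates 1 and 2 of ref4-3 cdk8-1 and replicates 1, 2 and 3 of cdk8-1, and WRKY54 without replicate 1 or 2 of ref4-3 cdk8-1 or replicate 2 or 3 of cdk8-1. Their values then were -0.86 to -0.63 and -0.53 to -0.36. FMO1 had 18 counts in the double mutant and 1 in cdk8-1, a ratio of 14.1 with an exact interval of 2.22 to 586 for counting error. It was not called in the main fit but was called by DESeq2 and with the libraries of the contrast alone.

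Cysteine-rich receptor-like kinases, cell surface proteins many of which respond to salicylic acid, were called higher in 7 of 10 cases with CDK8 and lower in 0. Without CDK8 1 was called higher and 2 lower, and no member was called for the interaction, so a difference was not shown for any single kinase gene. CRK45 was at 12.3, 10.3 and 12.7 CPM against 3.8, 7.94 and 7.18 and rose by 0.91 ± 0.26. CRK13 was at 1.43, 1.91 and 2.26 against 6.07, 6.55 and 7.8 and fell by 1.86 on the log2 scale, and CRK5 fell by 0.60. The call of CRK45 was lost without replicate 1 or 3 of ref4-3 cdk8-1 or replicate 1 of cdk8-1, at 0.63 to 0.87. CRK5 lost its call without replicate 2 or 3 of either group, at -0.6 to -0.48. CRK7 was at 1.4 and not called in the main fit, against a rise of 2.73 with CDK8. DESeq2 and a fit with the libraries of the contrast alone called CRK7, both at 1.4.

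**Figure D4:**
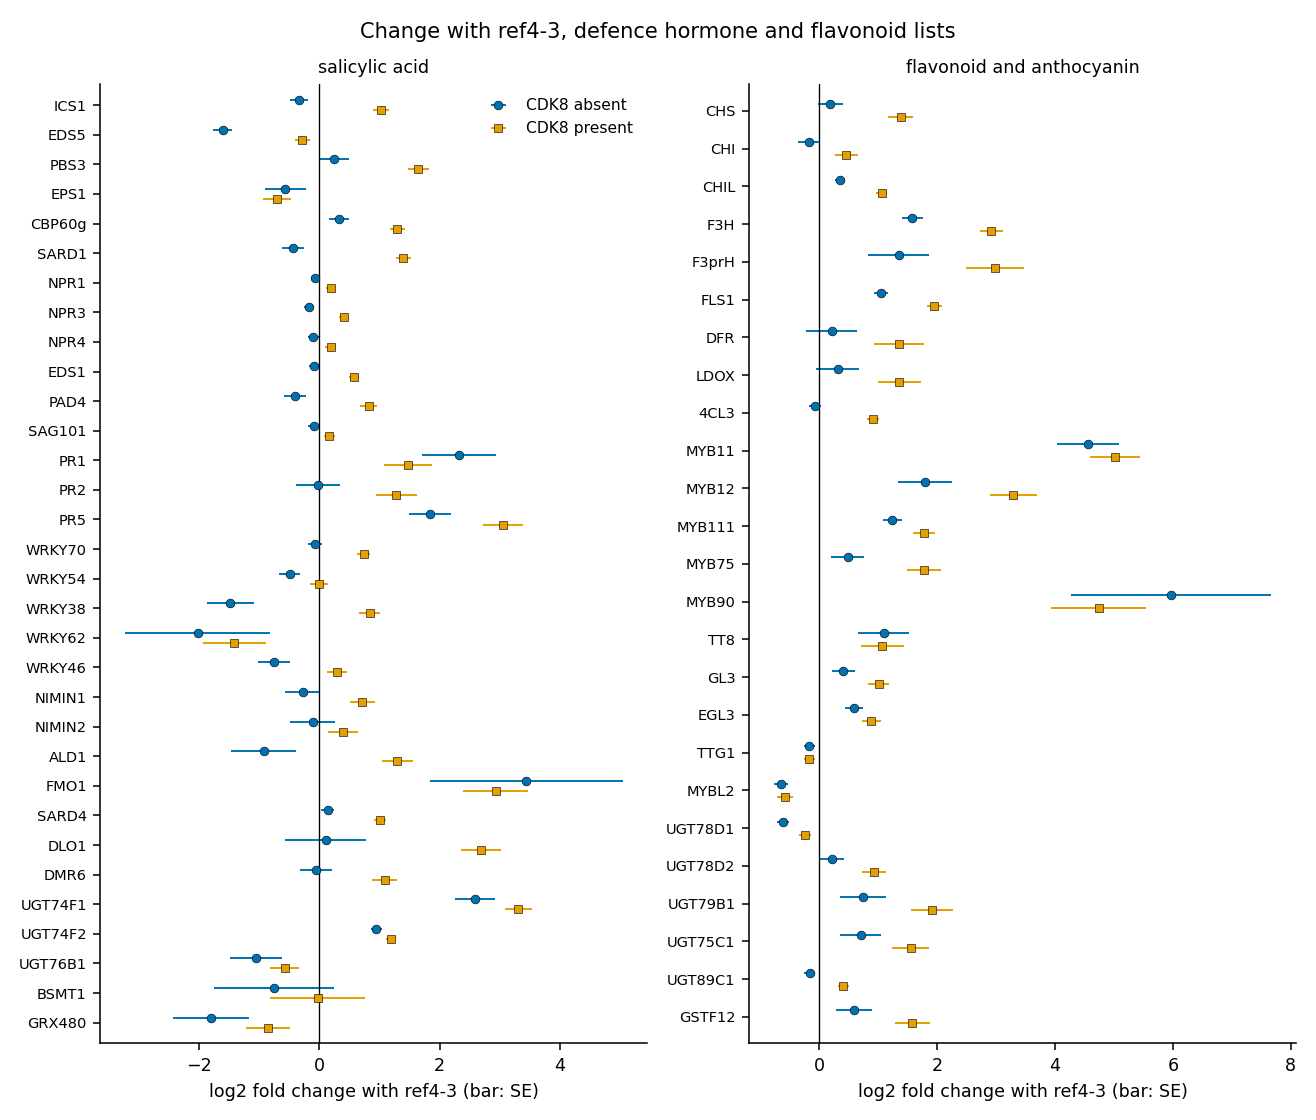
Log2 fold change with ref4-3 (x axis, bars are SE, n = 3 against 3) for each member of the salicylic acid list (left) and of the flavonoid and anthocyanin list (right), in blue without CDK8 and in orange with it. Most orange points lie right of 0, while blue salicylic acid points lie on both sides of 0 and blue flavonoid points lie mostly between 0 and the orange points.

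The changes of the salicylic acid and flavonoid members show both lists gene by gene. The blue point lies left of the orange point for all salicylic acid genes except EPS1, PR1 and FMO1 and for all flavonoid genes except MYB90 and TT8, and none of these 5 was called for the interaction.

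Flavonoids are the phenylpropanoids made from the chalcone synthase step onward, and they divide into flavonols and the red anthocyanins. Of 25 genes tested 8 were called higher and 2 lower without CDK8, with a median of 0.48. With CDK8 present 21 were called higher and 1 lower, with a median of 1.36, and for 6 of the 25 the interaction was called lower. The 8 were F3H, FLS1, CHIL (a chalcone isomerase-like protein, 0.35 ± 0.085), the regulator gene EGL3 (0.59 ± 0.16, and 0.46 with no call without replicate 3 of cdk8-1) and the MYB factor genes MYB11, MYB12, MYB111 and MYB90. FLS1, flavonol synthase, was at 80.5, 82.7 and 94.9 CPM in ref4-3 cdk8-1 and 38.7, 43.4 and 43.6 in cdk8-1. The groups did not overlap, a rise of 1.04 ± 0.12 (adjusted p = 3.94e-06), and with CDK8 the rise was 1.95 (interaction -0.91, adjusted p = 0.00599). FLS1 was at 60.2 to 67.9 CPM in ref4-3 and 13.2 to 19.5 in WT. The double mutant thus stood above ref4-3, and cdk8-1 stood above WT. F3H, flavanone 3-hydroxylase, was at 40.5, 49.6 and 57.9 CPM against 16.2, 16.3 and 16.9, a rise of 1.58 ± 0.18 against 2.92 with CDK8 (interaction -1.34, adjusted p = 0.0116). For F3H ref4-3 held 58.3 to 91.7 CPM and WT 8.95 to 10.9, so the double mutant stood below ref4-3 and cdk8-1 above WT. The flavonol regulator genes MYB111 and MYB12 rose by 1.24 ± 0.16 and 1.79 ± 0.46. Mean levels of MYB111 were 21.8 CPM in ref4-3 cdk8-1, 9.22 in cdk8-1, 14.2 in ref4-3 and 4.16 in WT. MYB11 had 70 counts against 2 in cdk8-1, a ratio of 27.4 with an exact interval of 7.3 to 230.

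CHS, chalcone synthase, was at 150, 180 and 209 CPM in ref4-3 cdk8-1 and 140, 165 and 168 in cdk8-1. Its groups overlapped (0.19, adjusted p = 0.538), whereas it rose by 1.38 with CDK8 (interaction -1.20, adjusted p = 0.0438). CHS was at 204 to 348 CPM in ref4-3 and 78.2 to 118 in WT, so cdk8-1 stood above WT. The anthocyanin enzyme genes DFR, LDOX, UGT75C1 and GSTF12 were at 0.21, 0.31, 0.70 and 0.59 and not called, and none of them was called for the interaction. MYB90, an anthocyanin regulator, was called higher: it had no count in cdk8-1 and was at least 6.77-fold higher in ref4-3 cdk8-1 against a floor of 3 counts over the group. MYBL2, a repressor of anthocyanin synthesis, and UGT78D1, a flavonol rhamnosyltransferase, were the members that fell, by 0.65 and 0.61 on the log2 scale.

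Chaperones of the endoplasmic reticulum fold secreted proteins and rise with the unfolded protein response. Of 12 genes tested 7 were called lower and 1 higher without CDK8, with a median of -0.35. With CDK8 present 9 were called higher and 0 lower, with a median of 0.28, and for 9 of the 12 the interaction was called lower. BIP2, an Hsp70 of this compartment, was at 228, 225 and 247 CPM in ref4-3 cdk8-1, 272, 301 and 326 in cdk8-1, 490, 479 and 454 in ref4-3 and 378, 337 and 332 in WT. It was lower with the allele in every library without CDK8 and higher in every library with CDK8. The change of -0.36 ± 0.071, the rise of 0.44 and the interaction of -0.80 were all called (adjusted p = 0.000424, 3.08e-05 and 4.22e-05). BIP1 and BIP2 are near-identical, so their single values are uncertain, and BIP1 had -0.35 and 0.23.

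SHD, the Hsp90 of the compartment, and ERDJ3B, a co-chaperone, had the same pattern, with falls of 0.29 and 0.40 and rises of 0.28 and 0.27 on the log2 scale. The calnexin gene CNX1 was at 228, 223 and 259 CPM against 306, 335 and 343. It fell by 0.47 without CDK8 and was not called with it (0.09), and CRT1 and CRT2, calreticulins, fell by 0.34 and 0.54. BIP3 was at 0.214, 0.953 and 0.657 CPM against 1.35, 1.02 and 0.532, and at 24.1 to 29.4 in ref4-3 and 4.82 to 8.86 in WT. It overlapped between the groups without CDK8 (-0.64, adjusted p = 0.441), and its interaction of -2.45 was called (adjusted p = 0.0369). bZIP60, a factor of the unfolded protein response, was the member that rose (0.36 ± 0.11). That call was lost without replicate 3 of ref4-3 cdk8-1 and without replicate 1 or 2 of cdk8-1, at 0.28 to 0.36.

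**Figure D5:**
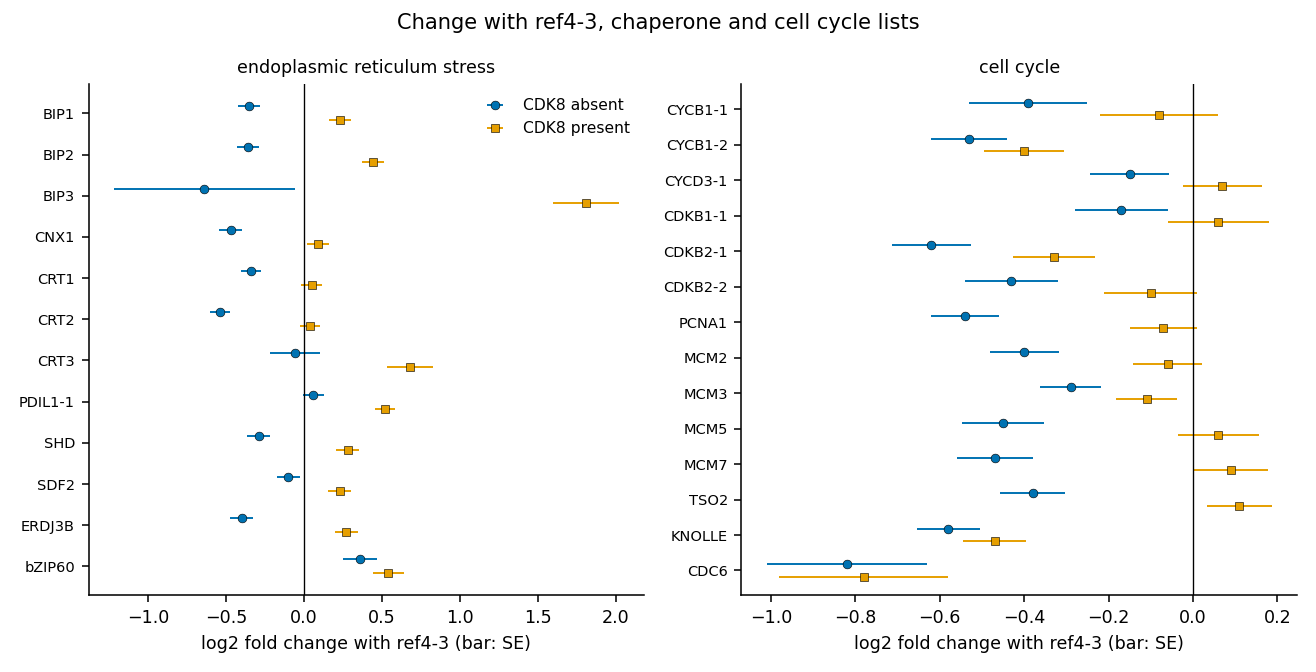
Log2 fold change with ref4-3 (x axis, bars are SE, n = 3 against 3) for the endoplasmic reticulum stress list (left) and the cell cycle list (right), in blue without CDK8 and in orange with it. Blue points lie left of the orange point for all 12 chaperone genes and all 14 cell cycle genes.

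The changes of chaperone and cell cycle genes also show how small most of these differences are: of the 26 genes on both panels, BIP3 is the one beyond 1 on either side of 0, at 1.81 with CDK8 present.

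Cell cycle genes were called lower in 12 of 14 cases and higher in none, with a median of -0.44. With CDK8 present 4 were called lower and 0 higher, with a median of -0.07, and the interaction was called lower for 4. PCNA1, the sliding clamp of DNA replication, was at 17.9, 19.6 and 21.5 CPM in ref4-3 cdk8-1, 29.2, 28.1 and 28.2 in cdk8-1, 22.9, 23.1 and 24.2 in ref4-3 and 23, 23.9 and 26.5 in WT. The double mutants were below all controls, a log2 change of -0.54 ± 0.08, and with CDK8 the change was -0.07 (interaction -0.47, adjusted p = 0.0161). MCM5 and MCM7, parts of the replicative helicase, and TSO2, a subunit of ribonucleotide reductase, fell by 0.45, 0.47 and 0.38, with interactions of -0.51, -0.56 and -0.48. The mitotic genes KNOLLE and CYCB1-2 fell by 0.58 and 0.53 without CDK8 and by 0.47 and 0.40 with it, and were not called for the interaction. CYCD3-1 and CDKB1-1 were not called, at -0.15 and -0.17, although CYCD3-1 was called at -0.26 without replicate 2 of ref4-3 cdk8-1. Summed over the list, cdk8-1 held 428 to 466 CPM, above the 378 to 392 of WT, while ref4-3 cdk8-1 held 323 to 340 and ref4-3 held 349 to 377.

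Leaf senescence genes, which break down chlorophyll and recycle nutrients, were called higher in 9 of 17 cases and lower in 1, with a median of 0.57, against 11 and 2 with CDK8. ORE1, a NAC factor of ageing, was at 7.65, 7.81 and 6.43 CPM against 1.43, 0.738 and 1.06. The double mutants were all higher, a rise of 2.74 ± 0.21 against 2.75 with CDK8 (interaction -0.02, adjusted p = 0.992). RD26 and NAP, further NAC factors, rose by 2.59 ± 0.3 and 2.49 ± 0.44, and the chlorophyll breakdown genes SGR1, SGR2, NYC1 and PAO rose by 0.66 ± 0.1, 1.86 ± 0.26, 0.43 ± 0.061 and 0.50 ± 0.064. SAG20 was the member that fell (-0.47 ± 0.12). SAG12, a late protease gene, had no count in cdk8-1 and 32 counts in the double mutant, at 0.143, 0 and 2.19 CPM in its 3 replicates. It was not called in the main fit but was called by DESeq2. SEN1 was at 0.33 and not called without CDK8, fell by 2.25 on the log2 scale with it, and had an interaction of 2.58 (adjusted p = 2.16e-05).

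Heat shock genes were called higher in 4 of 14 cases and lower in 1 without CDK8, and higher in 2 and lower in 7 with it. HSP70 was at 17.2, 14.5 and 16.3 CPM in ref4-3 cdk8-1, 3.21, 2.31 and 5.32 in cdk8-1, 18.7, 21.1 and 18.6 in ref4-3 and 22.8, 18.1 and 19.9 in WT. The cdk8-1 libraries stood below all the others, and the rise of 2.14 ± 0.18 without CDK8 had no counterpart with it (-0.06), and the interaction of 2.2 was called (adjusted p = 6.76e-06). DREB2A, a drought and heat factor, rose by 1.11 ± 0.17, and HSP18.2 fell by 1.66.

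Of 16 circadian clock genes 6 were called higher and 2 lower (5 and 3 with either of the other scaling factors), and 4 had an interaction called higher. All plants were taken at the same hour. ELF4, an evening gene, was at 55, 61 and 64.2 CPM in ref4-3 cdk8-1 and 33.7, 33.7 and 33.2 in cdk8-1. It rose by 0.84 ± 0.085 without CDK8 and was at 0.03 with it (interaction 0.81, adjusted p = 2e-04). ELF4 was at 63.7 to 78.8 CPM in ref4-3 and 63.2 to 76.5 in WT, so the cdk8-1 libraries stood below all the others. PRR5 fell by 0.64 without CDK8 and by 1.01 with it (interaction 0.37, adjusted p = 0.0131). TOC1 and LNK1 rose by 0.44 ± 0.067 and 0.58 ± 0.067, and the morning genes CCA1 and LHY were low at this hour and not called (0.44 and 0.53).

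Flowering time genes were called higher in 7 of 14 cases and lower in none without CDK8, against 3 higher and 2 lower with it. Among them were repressors and activators alike. The repressor gene MAF4 was at 4, 4.32 and 5.33 CPM in ref4-3 cdk8-1 and 1.01, 1.66 and 1.51 in cdk8-1. The groups did not overlap, the rise was 1.71 ± 0.28, and the interaction of 2.35 was called (adjusted p = 0.00234). Its relative MAF5 was at 14.1, 15.9 and 19.6 CPM against 1.52, 1.38 and 0.709 and rose by 3.76 ± 0.54. With CDK8 it was at 9.44, 1.39 and 4.27 CPM in ref4-3, a wide spread, and its interaction of 2.39 was not called. The activator gene SOC1 was at 78, 78.9 and 76.9 CPM against 50.4, 51.9 and 55.7 and rose by 0.57 ± 0.06, more than with CDK8 (interaction 0.39, adjusted p = 0.00785). FLC, FLM, AGL24 and FUL rose by 1.02 ± 0.3, 0.30 ± 0.065, 0.32 ± 0.095 and 1.07 ± 0.23. FLC and AGL24 lost their calls without replicate 2 of ref4-3 cdk8-1 and without replicate 1 of cdk8-1, at 0.89 and 0.94 for FLC and 0.22 and 0.25 for AGL24. SMZ, a floral repressor outside the list, was at 4.72, 4.38 and 4.67 CPM against 8.69, 8.12 and 8.51, and at 5.87, 6.86 and 7.09 in ref4-3 and 4.04, 4.14 and 3.28 in WT. It fell by 0.88 on the log2 scale without CDK8 and rose by 0.78 with it (interaction -1.66, adjusted p = 0.000661).

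The remaining lists had called members in both directions. Of 11 phosphate starvation genes 2 were called higher and 2 lower, PAP17, an acid phosphatase, rising by 1.26 ± 0.088. Leaving out any of ref4-3 cdk8-1 replicates 1, 2 and 3 or replicate 3 of cdk8-1 left 1 of the 2 lower calls. Of 10 iron genes 2 were called higher and 2 lower: the regulator genes PYE and BTS rose by 0.91 ± 0.13 and 0.34 ± 0.081, and the ferritin genes FER3 and FER4 fell by 0.41 and 0.53. Of 11 oxidative stress and glutathione transferase genes 3 were called higher and 2 lower, FSD1, a superoxide dismutase, falling by 1.01 and APX1, an ascorbate peroxidase, by 0.39. The 3 higher calls became 1 without replicate 1 or 2 of cdk8-1. In the phloem list the sucrose carrier gene SUC2 was at 237, 196 and 229 CPM against 125, 130 and 122 and rose by 0.81 ± 0.082, as did PP2-A1 (0.68 ± 0.076), while SWEET11 and SEOR1 fell by 0.93 and 0.60. In the guard cell list OST1 and SLAC1 rose by 0.55 ± 0.089 and 0.49 ± 0.17 and FAMA fell by 0.26. SLAC1 lost its call without replicate 1 or 2 of ref4-3 cdk8-1 or replicate 3 of cdk8-1, at 0.32 to 0.46. FAMA lost its call without any of 4 libraries, replicates 1 and 2 of ref4-3 cdk8-1 and replicates 2 and 3 of cdk8-1, at -0.27 to -0.2.

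Of 9 genes used as references in quantitative PCR, 7 were not called. ACT2 was at 398, 378 and 388 CPM in ref4-3 cdk8-1 and 556, 552 and 547 in cdk8-1. The double mutants were all lower, a log2 change of -0.51 ± 0.06 (adjusted p = 8.78e-07), and EF1A fell by 0.41. UBQ10, PP2AA3 and SAND were at -0.03, -0.04 and 0.10.

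Genes called without CDK8 and not with it numbered 1108 higher and 891 lower, and the interaction was called for 152 and 83 of them. For the rest a difference between the 2 settings was not shown. AT1G67105, an RNA gene with no protein product in TAIR10.1 at chr1:25057479-25058264, was at 21.4, 18.1 and 15.1 CPM in ref4-3 cdk8-1 and 0.0843, 1.02 and 0.177 in cdk8-1. It was at 0.153 to 0.489 in ref4-3 and 0.172 to 0.421 in WT, so the double mutant stood apart from the other 3 genotypes. The change was 5.43 ± 0.33 and the interaction 5.36 (adjusted p = 0.00262). AT5G09890, a protein kinase gene at chr5:3085544-3089119, was at 8.15, 7.56 and 7.67 CPM in ref4-3 cdk8-1, 47.2, 44.8 and 52.4 in cdk8-1, 36.8 to 38.8 in ref4-3 and 47.4 to 48.8 in WT. Here too the double mutant stood apart, with a log2 change of -2.63 ± 0.081 against one of -0.36 with CDK8 (interaction -2.27, adjusted p = 3.17e-12). The change of AT5G09890 with CDK8 was also called (adjusted p = 0.000222), so this gene is not among those called only without CDK8. AT5G44568 fell by 1.64, with an interaction of -1.19 (adjusted p = 0.037).

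For another pair of genes the control group was the exception. MRD1, at chr1:19963047-19964712, was at 31.7, 32.3 and 31.4 CPM in ref4-3 cdk8-1 and 0, 0.0923 and 0 in cdk8-1, while ref4-3 held 26.8 to 32.9 and WT 27.8 to 31.4. With 1383 counts against 1, the ratio was 1080 with an exact 95% interval of 194 to 42700 for counting error. It overlaps HEI10 on the opposite strand by 1446 bases, and HEI10 rose by 1.75 ± 0.253 (adjusted p = 1.32e-05). AT3G57880, a calcium-dependent lipid-binding protein gene at chr3:21430922-21434648, was at 30.4, 29 and 27.9 CPM in ref4-3 cdk8-1 and 0.253, 0.369 and 0.177 in cdk8-1, with 23.7 to 26.5 in ref4-3 and 19.9 to 22 in WT. For both genes cdk8-1 was far below the other 3 genotypes, and the log2 fold change of the double mutant against WT was 0.13 for MRD1 and 0.47 for AT3G57880. Whether ref4-3 or another difference between the lines goes with these values was not tested.

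Genes called in opposite directions in the 2 settings numbered 64, 38 of them higher and 26 lower without CDK8, and all 64 were called for the interaction. EBP, an ethylene response factor, was at 114, 112 and 113 CPM in ref4-3 cdk8-1 and 70.1, 62.9 and 68 in cdk8-1, and at 48.3, 47.2 and 47.8 in ref4-3 and 80.9, 87.8 and 67.4 in WT. It rose by 0.76 ± 0.1 without CDK8 and fell by 0.72 on the log2 scale with it, with no overlap in either setting. AT2G15960, annotated as a stress-induced protein, rose by 0.77 ± 0.081 and fell by 0.36, and AT4G36850, a membrane protein with PQ-loop repeats, rose by 0.90 ± 0.18 and fell by 0.71. NUDT6, a nudix hydrolase, was at 4.43, 4.32 and 4.16 CPM in ref4-3 cdk8-1 and 4.81, 8.03 and 4.79 in cdk8-1. It was not called without CDK8 (-0.44, adjusted p = 0.172) and rose by 1.54 with it (interaction -1.98, adjusted p = 0.000902).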

How the data were processed

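Per the labels' protocols, polyadenylated RNA was sequenced with a strand-marking kit. The tools were Trimmomatic, TopHat2 2.1.0, HTSeq 0.6.1 and edgeR on the TAIR10 build, per the submitters' processing notes. How reads were counted by mode and strand is not given in the sources used here, so overlapping genes on opposite strands and near-identical copies are uncertain one by one. The deposited table holds raw counts per gene for 33601 loci and 15 libraries, deposited by the authors without scaling. Rows that name no gene were left out of library sizes; in the 6 libraries compared, reads outside genes equalled 0.667% to 0.952% of the gene counts and ambiguous reads 1.87% to 4.99%.

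The tests covered the 18935 genes whose level passed 1 CPM in 3 or more of the 15 libraries. Counts were scaled by TMM and fitted by genotype over all 15 libraries with edgeR 4.0.16 (R 4.3.3), robust quasi-likelihood tests, a prior count of 0.125 and Benjamini-Hochberg adjustment over all genes tested. Variation between replicates was 6.96% (median biological coefficient). The interaction contrast subtracts the change of ref4-3 against WT from that of ref4-3 cdk8-1 against cdk8-1, and these comparisons share no library. Replicates differed by more than sampling noise, with chi-square per degree of freedom of 2.67 to 3.75 in the groups compared. In ref4-1, whose libraries also entered the fit, it was 5.14 to 14.7. Intervals for low counts are exact at 95%, and they and the floor of 3 counts cover counting error only. Gene positions and upstream windows came from TAIR10.1 in RefSeq, which held 32834 of the 33601 loci; gene names and products came from the same annotation. The fit was tested on simulated data. The alternatives were other scaling factors, filters, tools (DESeq2 1.42.0, limma 3.58.1), fits of fewer libraries, a replicate block and each library left out.

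The libraries were chosen by genotype, and the genes and lists were chosen with earlier results of these data known. Genes named by rule were MED5B, CDK8, DJC66 and the Kelch F-box genes, and, from called genes that averaged 5 CPM or more over the 6 libraries without overlap, the 12 that rose most and the 12 that fell most. To these came the 4 greatest in each direction not called with CDK8, the 4 greatest called in the opposite direction, the 4 greatest and 4 least interactions, and up to 3 called members of each list with the smallest adjusted p. Other list members were named to describe their list or because a count of 5 or fewer asked for names. AT2G44140 and HEI10 were named after their values were seen, as overlapping genes, and so were LTP6 and IGMT1, for their interactions. Some results are not reported here.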

Additional observations from a re-analysis of the deposited data

Results flagged for a closer look

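The genes here were picked out because edgeR's interaction test called a difference between the ref4-3 change without CDK8 and that with CDK8, at an adjusted p under 0.05 over all genes tested. Values are the difference of the log2 fold changes, without CDK8 minus with CDK8, so that a positive value means a higher change without CDK8, and no explanation was tested. Among salicylic acid genes the difference was negative for ICS1 (-1.37), EDS5 (-1.32), PBS3 (-1.4), PAD4 (-1.22), EDS1 (-0.65), CBP60g (-0.97), SARD1 (-1.83), SARD4 (-0.87), ALD1 (-2.22), NPR3 (-0.58), WRKY38 (-2.33) and WRKY70 (-0.81). Among flavonoid and phenylpropanoid genes and the Kelch F-box genes that act on them the difference was negative for CHS (-1.20), CHIL (-0.71), F3H (-1.34), FLS1 (-0.91), UGT84A2 (-1.02), MYB4 (-0.81), KFB39 (-0.88), KFB01 (-0.81) and KFB50 (-0.46) and positive for SNG1 (0.84) and COMT1 (0.40). Among chaperone and cell cycle genes the difference was negative for BIP1 (-0.58), BIP2 (-0.80), BIP3 (-2.45), SHD (-0.56), ERDJ3B (-0.68), CNX1 (-0.56), CRT1 (-0.39), CRT2 (-0.58), PCNA1 (-0.47), MCM5 (-0.51), MCM7 (-0.56) and TSO2 (-0.48). Among cold and abscisic acid genes the difference was positive for RD29A (0.77), RAB18 (2.74), COR47 (0.60), ERD10 (0.60) and ERD14 (0.53). Among photosynthesis, light stress, cell wall, lipid transfer and auxin transport genes the difference was negative for ELIP1 (-2.74), XTH31 (-1.86), EXPA10 (-0.50) and LTP6 (-0.57) and positive for LHCB1.2 (0.83), LHCB3 (0.66), LHCA1 (0.44), EXPA11 (0.92), LTP5 (0.63), AT1G62510 (3.07) and PIN7 (0.54). Among clock, flowering and senescence genes the difference was negative for SMZ (-1.66) and positive for PRR5 (0.37), ELF4 (0.81), SOC1 (0.39), AGL24 (0.52), MAF4 (2.35) and SEN1 (2.58). Among defence, glucosinolate, heat, phosphate and phloem genes the difference was negative for MAM3 (-0.69) and PAP17 (-0.46) and positive for PR4 (0.99), IGMT1 (1.51), HSP70 (2.2) and PP2-A1 (0.37). Among the single genes named for their size of change the difference was negative for AT5G44568 (-1.19), NUDT6 (-1.98) and AT5G09890 (-2.27) and positive for MRD1 (9.59), HEI10 (1.65), AT3G57880 (6.49), AT1G67105 (5.36), AT4G36850 (1.62), EBP (1.48) and AT2G15960 (1.14). 

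In 5.29% of all genes tested the interaction was called, and the genes above were named from lists and rules that take genes with large or certain changes, so their number is no share of a fair sample. Among the 238 tested list members that are not named, the interaction was called higher for 17 and lower for 8.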

How the results depend on the processing

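The number of genes called for ref4-3 cdk8-1 against cdk8-1 stayed within 1.5 times of 6185 under all alternatives run: 6252 and 6215 with DESeq2 size factors and upper quartile factors, 6052 with no filter beyond 1 count and 5737 with the filter at 5 CPM, 5508 with DESeq2, 6146 with limma voom and 7219 with the libraries of the contrast alone. The all-gene median moved from 0.019 to 0.007 and 0.012 with the other scaling factors, and no list median changed sign with them. With 1 library left out, medians near 0 changed sign for heat shock genes (-0.035 without replicate 2 of cdk8-1, from 0.108), guard cell markers (-0.066 without replicate 3 of ref4-3 cdk8-1, from 0.11) and phloem markers (-0.01 without replicate 3 of cdk8-1, from 0.045), for oxidative stress genes (0.021 to 0.065 without replicate 1 of ref4-3 cdk8-1 or replicate 2 or 3 of cdk8-1, from -0.036) and for reference genes (0.031 and 0.017 without replicate 2 of ref4-3 cdk8-1 and of cdk8-1, from -0.009). With each of the 6 libraries left out the number called was 5031 to 5481. The number with at least a 2-fold change was 667 in place of 1016 under the filter at 5 CPM, by construction a test of fewer genes. The interaction count was 579 to 1015 with 1 library left out, and the shared calls were 3490 to 3908. Calls for ref4-3 against WT were 6201 to 7136 with 1 library left out. A fit without robust estimation of the spread, chosen after seeing the data, gave 6215, 7560 and 971 calls for the 2 comparisons and the interaction.

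Same-numbered replicates of the groups compared had deviations correlated at -0.021, -0.002 and 0.031. These values gave no sign that the numbers pair the samples, but so few values cannot exclude a pairing. The fit with the replicate number as a block gave 6290 calls, 7675 for ref4-3 against WT, 1098 for the interaction and 4228 shared calls, and ICS1 (-0.33) and CRK7 (1.41) were then called and WRKY54 (-0.49) was not.

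Of 235 genes named, 21 lost their call for ref4-3 cdk8-1 against cdk8-1 or changed sign under at least 1 alternative, and 15 gained a call. The interactions of single genes were not checked under the alternatives. Some were near the threshold in edgeR's test, such as CHS, PAP17 and PP2-A1 (adjusted p = 0.0438, 0.042 and 0.0406). No called gene changed sign. Signs changed for 8 genes that were not called, with these ranges over the libraries left out: CAD5 -0.23 to 0.09, DFR 0 to 0.4, EDS1 -0.13 to 0.01, JAR1 -0.07 to 0.07, PP2AA3 -0.08 to 0.03, PR2 -0.27 to 0.24 (0.03 with limma voom), UBQ10 -0.06 to 0 and WRKY70 -0.21 to 0.07; the cause was not tested. SLAC1 (0.48) and FAMA (-0.28) also lost their calls with DESeq2. Further calls gained with the libraries of the contrast alone were ICS1 (-0.34), CBP60g (0.33), PAD4 (-0.4), PAL4 (-0.45), COI1 (0.17), LHCB4.1 (-0.18) and PSBO1 (-0.18). DESeq2 also called SARD1 (-0.44) and LHCB4.1 (-0.19). Genes under about 1 CPM rest on few counts, since 1 count equalled 0.0663 to 0.0883 CPM.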
